A study of Mus musculus with 22 samples.

Results

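The 6 genes described here are the integrin activators Fermt2 (kindlin-2), Fermt3 (kindlin-3) and Tln1 (talin-1) and the integrin subunits Itgb1 (β1), Itgb2 (β2, CD18) and Itgal (αL, CD11a). They were taken from the transcript count matrix by gene assignment in the mouse GENCODE annotation, which gave 25 of 62492 listed transcripts and 6 of 17023 genes. They were chosen by measured values: the low counts of Fermt2 in NFKBIE-ko libraries, the counts of the other members in the same contrast, and the high Itgb2 counts in the peritoneum. The genotype contrasts of all 6 genes and the level of Itgb2 in the peritoneal cavity (PC) are therefore given as descriptions. No p-value is given for them, and where members that passed a call are counted, the count describes the choice and is no evidence for it.

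Integrins are αβ heterodimers on the cell surface that stay in a bent, low-affinity form until the cytoplasmic tail of the β subunit is bound from inside the cell. Talin binds the membrane-proximal NPxY motif of that tail and kindlin the distal one, and both are needed to switch the receptor on and to tie it to actin. Kindlin-3 is the kindlin of blood cells, whereas kindlin-2 is broadly expressed outside the blood lineage. Itgal pairs with Itgb2 to form LFA-1, through which lymphocytes adhere to ICAM-1, and Itgb2 also pairs with Itgam, Itgax or Itgad on myeloid cells.

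The leukemic cells were TCL1-355 TKO, a line derived from a leukemia of the Eμ-TCL1 transgenic mouse, in which the human TCL1 oncogene is driven in B cells. All groups share this transgene and biallelic loss-of-function mutations in 3 tumor suppressor genes, Cdkn2a and Cdkn2b among them. NFKBIE-ko cells had been electroporated with Cas9 and a guide RNA against exon 2 of the NFKBIE gene, which encodes the NF-κB inhibitor IκBε, and NFKBIE-wt cells were the mock-treated counterpart. Each genotype was propagated for 21 days in 1 C57BL/6 mouse, and the cells were then injected into the peritoneum of C57BL/6 recipients (2-3 months old by the general animal methods) and recovered 10 days later. There were 4 NFKBIE-wt and 4 NFKBIE-ko libraries from the spleen, 4 and 4 from the PC, and 3 and 3 from cells kept in culture for 2 weeks. The cells from spleen and PC were not purified, so their libraries also hold RNA of the host. The cultures were kept apart from each other and began with spleen cells of 3 mice, per the study's methods. Since the transplanted cells of each genotype had passed through 1 mouse, the edit and a clonal or passage difference between the 2 cell populations cannot be told apart. In such bulk RNA, fewer cells of a type and less RNA per cell cannot be told apart either.

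The libraries held 24036763 to 26581304 estimated counts. B-cell markers (6 genes) summed to 1400-3470 CPM (counts scaled to library size, with TMM factors) in every library. The targeted gene, Nfkbie, was at 71.4-123 CPM in the wild-type spleens and 54.8-121 CPM in the knockout spleens, at 67.8-92.6 and 47.1-65.1 CPM in the PC, and at 53.7-139 and 47.5-59.0 CPM in culture, so that the spleen and culture libraries overlapped. An mRNA level does not show whether the reading frame is intact. Markers of blood cells went against the labels of 2 libraries. The library labelled wild-type spleen 4 held erythroid markers (6 genes) at 6.67 CPM, where the other wild-type spleens held 164-891, and granulocyte markers (8 genes) at 0.115 CPM against 58.9-374. The library labelled wild-type culture 3 held 745 and 190 CPM of these markers, where the other cultures held 11.2-24.7 and 0-3.44. The blood-cell levels of each were thus near those of the group of the other. Nfkbie in wild-type spleen 4 (123 CPM) lay between wild-type cultures 1 and 2 (113 and 139 CPM). In wild-type culture 3 (53.7 CPM) it lay below the other wild-type spleens (71.4-76.0 CPM) and within the knockout cultures (47.5-59.0 CPM). Whether the 2 libraries were exchanged was not tested. Both were kept under their labels, and the log2 differences that include them are also given without them, but an exchange would also change the group of each of their printed values.

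The tails that talin and kindlin bind are shown because they are where the activators and the integrins of this set meet. The last 123 coding bases (40 codons and the stop codon, exons 15 and 16 of 16) of the main Itgb1 and Itgb2 transcripts were read from the GRCm39 reference, plus strand, at chr8:129452611-129458569 and chr10:77400579-77401074, with the intron between the exons left out. Capitals mark the codons of the 2 motifs (asparagine, proline, any residue, then tyrosine or phenylalanine), which start at codons 22 and 34 of the window in both genes.
Itgb1-201: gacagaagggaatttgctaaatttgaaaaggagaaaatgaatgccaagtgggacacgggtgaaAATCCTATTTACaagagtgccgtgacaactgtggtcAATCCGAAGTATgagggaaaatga
Itgb2-201: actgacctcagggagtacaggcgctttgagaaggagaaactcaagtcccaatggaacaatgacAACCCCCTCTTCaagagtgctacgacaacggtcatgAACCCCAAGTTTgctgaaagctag
The motifs lie 8 codons apart in each tail. Both end in a tyrosine codon in Itgb1 and in a phenylalanine codon in Itgb2.

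Fermt2 (ENSMUSG00000037712, GRCm39 chr14:45696239-45767770, minus strand) was close to absent in every NFKBIE-ko library. In the wild-type spleens it was at 82.3, 31.9, 26.2 and 77.3 CPM, and in the knockout spleens at 0.269, 0, 0 and 0 CPM. In the PC the wild-type libraries held 7.86, 12, 6.64 and 7.26 CPM, and the knockout libraries 0, 0, 0.0431 and 0.0400 CPM. In culture the wild-type libraries held 73.7, 0 and 47.8 CPM, and the knockout libraries 0, 0.0379 and 0 CPM. The genotypes did not overlap in spleen or PC, whereas in culture wild-type replicate 2 was as empty as the knockouts. In reads this was 7 against 5523 estimated counts over the spleens, 2 against 828 over the PC libraries and 1 against 3176 over the cultures, with the knockout named first. The ratios of these summed counts, wild type over knockout and scaled by the summed library sizes, were 794 (385-1980), 422 (116-3490) and 3140 (563-124000). Their exact 95% intervals cover counting error only. The fitted log2 difference in spleen was -9.56 ± 0.84 (SE) with all libraries and -9.33 without wild-type spleen 4, and without wild-type culture 3 the wild-type cultures were at 73.7 and 0 CPM. All 7 counts of the knockout spleens came from replicate 1. In wild-type culture 2 a count of 0 allows up to 3 counts, or 0.114 CPM.

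**Figure D1:**
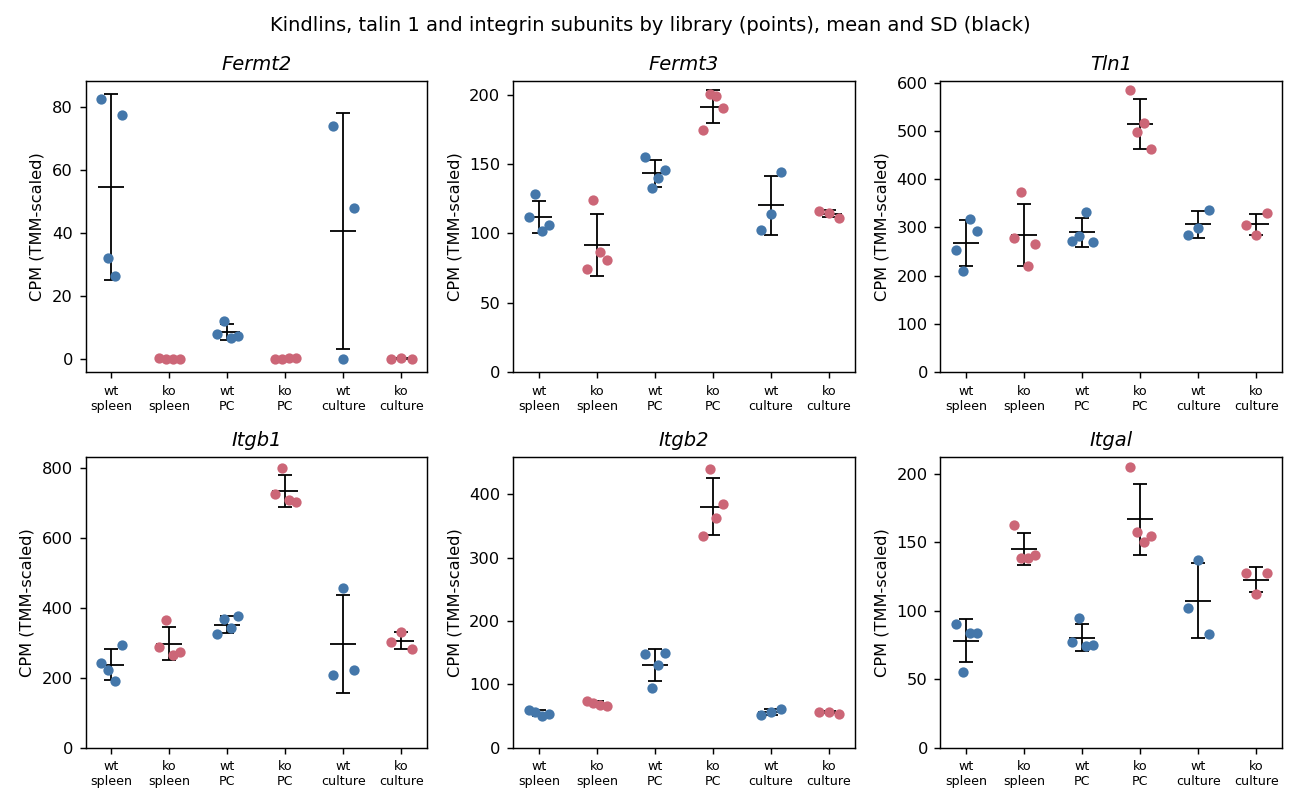
Level of the 6 genes in each of the 22 libraries. Each panel shows 1 gene, the horizontal axis the 6 groups and the vertical axis CPM. Points are libraries, horizontal bars group means and error bars the SD (n = 4, or 3 in culture). Fermt2 was at or near 0 in all 11 knockout libraries and in wild-type culture 2, and Itgb2 was highest in the knockout PC libraries.

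Wild-type culture 2, the library without Fermt2, lay with the wild-type cultures in some genes and apart from them in others. Cd4, which was at 79.7-109 CPM in the knockout cultures, was there at 8.09 CPM, and Nfkbie at 139 CPM. Cd3g was at 34.1 CPM against 9.26 and 9.67 CPM in the other wild-type cultures, and Blk, a kinase of B cells, at 103 against 55.8 and 56.1 CPM. The 5 genes with the pattern most like Fermt2 over the 22 libraries, by Pearson correlation of log2 CPM among 13538 genes, were Camk2b (r = 0.965), Grb10 (0.964), Tmem248 (0.922), the pseudogene Gm2792 (0.919) and Hcrtr2 (0.914). That library, with Fermt2 at 0, was among the 22 and so took part in their choice. Camk2b, a subunit of the calmodulin-dependent kinase II, was at 3.91 CPM in it, where the other wild-type cultures held 189 and 371 CPM and the knockout cultures 6.85 CPM on average. Grb10, an adaptor of receptor tyrosine kinases, was at 0 in it and in the knockout cultures, against 25.3 and 6.22 CPM. Over the 16 in vivo libraries the closest were Foxp2 (0.974), Camk2b (0.958), Grb10 (0.956), Tmed2 (0.945) and Marveld2 (0.941), a choice in which the cultures took no part. In wild-type culture 2, Foxp2 was at 7.29 CPM (38.6 and 29.1 in the other wild-type cultures) and Tmed2 at 412 CPM (597 and 471), whereas Marveld2 was at 9.76 CPM (9.72 and 12.9). The libraries share genotype, site and depth, so these correlations are descriptions. For the other members, r with Fermt2 over the 22 libraries was -0.09 for Fermt3, -0.42 for Tln1, -0.59 for Itgb1, -0.37 for Itgb2 and -0.80 for Itgal.

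On the chromosome, the protein-coding genes around Fermt2 did not share its drop. Of the 5 nearest on either side, 9 passed the filter on low counts in each genotype contrast. With the edgeR quasi-likelihood test and Benjamini-Hochberg adjustment over all genes, 0 were called in spleen (2 at an unadjusted p under 0.05, 1 by DESeq2), 3 in PC and 0 in culture (0 at an unadjusted p under 0.05, 0 by DESeq2). Their log2 differences, NFKBIE-ko minus NFKBIE-wt, lay between -0.69 and 0.76. Gnpnat1, the nearest at 6227 bases, differed by -0.08 in spleen (adjusted p = 0.728), -0.02 in PC (0.895) and 0.03 in culture (0.924). Ddhd1, a phospholipase 58154 bases away on the other side, rose by 0.76 in PC (0.00571) and differed by 0.02 in spleen (0.956) and -0.28 in culture (0.577). The other calls in PC were Ero1a, an oxidase of the endoplasmic reticulum, which rose by 0.65 (0.000499), and Cnih1, which fell by 0.21 (0.0392).

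Among the wild-type libraries, Fermt2 was lower in PC than in spleen. It fell from 54.4 ± 29.5 CPM in spleen to 8.44 ± 2.43 CPM in PC (SD, n = 4 each), a log2 difference, PC minus spleen, of -2.68 ± 0.41 (SE, adjusted p = 0.00229), with all 4 PC libraries below all 4 spleen libraries. Without wild-type spleen 4 the difference was -2.47 (adjusted p = 0.00168). These wild-type libraries are also the ones by which Fermt2 was chosen, so the p-values are not independent of the choice. They also hold host RNA, with macrophage and monocyte markers (12 genes) at 34.7-88.2 CPM in spleen and 594-1820 CPM in PC. The part of host RNA in this difference was not tested. Between wild-type spleen and culture the log2 difference was 0.42 ± 1.32, with the cultures spread from 0 to 73.7 CPM, and no difference was detectable (adjusted p = 0.999).

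Fermt2 was the smaller part of the kindlin transcripts throughout. On the per-length scale TPM (counts divided by transcript length, scaled to the same total in every library), it made up 22.9-46.2% of Fermt2 plus Fermt3 in the wild-type spleens, 5.19-9.56% in the wild-type PC libraries, and 45.7, 0 and 27.4% in the wild-type cultures. In the knockout libraries the share was at most 0.420% in spleen, 0.0258% in PC and 0.0387% in culture. Fermt2-201 (3501 bases, 15 exons, 680 codons) carried 99.75% of the gene's CPM, and 2 of its 22 annotated transcripts were listed. Stromal and endothelial markers (8 genes) were listed for host cells that can use kindlin-2. They summed to 40.1-65.6 CPM in the wild-type and 40.2-74.8 CPM in the knockout spleens, and to 79.3-104 and 104-122 CPM in the PC. The cultures held 47.8-64.7 CPM, within the range of the spleens, so the sum does not stand for host cells alone. Col1a1 (7.53-8.03 CPM) and Cdh5 (1.90-3.01 CPM) were also present in the knockout cultures. Most of this sum was Pecam1, which was at 29.2-61.5 CPM in the spleens, 60.6-112 CPM in the PC and 38.4-50.5 CPM in the cultures. The fibroblast genes went the other way in the PC, with Col3a1 at 1.24-8.26 CPM in the wild-type and 0.400-0.603 CPM in the knockout libraries, Col1a2 at 1.8-8.34 and 0.560-1.03 CPM, and Dcn at 1.44-11.5 and 0.911-2.40 CPM. Col1a2, Dcn and Kdr were at 0 in the knockout cultures, and in wild-type culture 1, with Fermt2 at 73.7 CPM, Col1a2, Col3a1 and Dcn were at 0 as well. The part of host cells in the Fermt2 values of spleen and PC was not tested.

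The remaining 5 genes are described against the share of all genes that passed the same call (adjusted p below 0.05). In spleen, 2.32% of the tested genes were called higher and 3.16% lower in NFKBIE-ko cells. In PC the shares were 22.5% and 20.9%, and in culture 0.0427% and 0%. Of the 6 members, 2 were called in spleen (Fermt2 lower, Itgal higher), 6 in PC (Fermt2 lower, the others higher) and 0 of the 5 that passed the filter in culture (0 at an unadjusted p under 0.05). DESeq2 called Fermt2 in culture, where the edgeR filter had dropped it. The genotypes did not overlap for 3 members in spleen, 6 in PC and 0 in culture, against 16.2%, 41.7% and 19.7% of all genes. Nothing about the members is read from these counts, because the contrast served to choose them.

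Fermt3 (ENSMUSG00000024965, chr19:6974559-6996837, minus strand), the kindlin of blood cells, did not take a common direction with the loss of Fermt2. In spleen it was at 112, 128, 102 and 106 CPM in the wild-type and 74.6, 124, 86.6 and 80.5 CPM in the knockout libraries, a log2 difference of -0.32 ± 0.16 (SE) with 1 knockout library within the wild-type range. In PC it was at 155, 132, 140 and 146 CPM in the wild-type and 175, 201, 199 and 190 CPM in the knockout libraries, a difference of 0.41 ± 0.07 without overlap. In culture it was at 102, 114 and 144 against 116, 115 and 111 CPM, a difference of -0.08 ± 0.14. Without wild-type spleen 4 the spleen difference was -0.33, and the culture difference was 0.08 without wild-type culture 3. The knockout values were thus lower on average in spleen, higher in PC and inside the wild-type range in culture. The interval in culture (estimate ± 2 SE) was -0.37 to 0.20 on the log2 scale. Fermt3 overlaps Trpt1 on the opposite strand, and whether the counting used strand is not given in the sources used here, so some of its counts may belong to that gene.

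Tln1 (ENSMUSG00000028465, chr4:43531513-43562691, minus strand) encodes talin-1, the other partner of the β tail. In spleen it was at 253, 209, 318 and 293 CPM in the wild-type and 278, 374, 221 and 266 CPM in the knockout libraries, which overlapped (log2 difference 0.06 ± 0.19). In PC it was at 273, 283, 333 and 270 CPM in the wild-type and 585, 498, 517 and 462 CPM in the knockout libraries, which did not (0.83 ± 0.09). The cultures held 284, 299 and 337 against 306, 285 and 329 CPM (-0.01 ± 0.11). The spleen difference was 0.11 without wild-type spleen 4, and the culture difference 0.07 without wild-type culture 3. Talin transcripts were thus higher in the knockout PC libraries by a factor of 1.77 and overlapped between genotypes elsewhere. The gene overlaps Creb3 on the opposite strand, with the same limit as for Fermt3.

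Itgb1 (ENSMUSG00000025809, chr8:129411876-129460618, plus strand) encodes the β1 subunit, which with Itga4 forms VLA-4. In spleen it was at 243, 222, 190 and 295 CPM in the wild-type and 287, 365, 264 and 273 CPM in the knockout libraries (log2 difference 0.30 ± 0.16, overlapping). In PC it was at 324, 368, 341 and 375 CPM in the wild-type and 725, 799, 708 and 701 CPM in the knockout libraries (1.05 ± 0.07, no overlap). In culture it was at 208, 457 and 223 CPM in the wild-type and 303, 332 and 283 CPM in the knockout libraries (0.04 ± 0.31). The high culture value belongs to wild-type culture 2, the library without Fermt2, and without it the difference in culture was 0.50. It was -0.12 without wild-type culture 3 and ranged from -0.16 to 0.50 when each culture was left out in turn. The spleen difference was 0.43 without wild-type spleen 4.

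Itgal (ENSMUSG00000030830, chr7:126895432-126934320, plus strand), the α subunit of LFA-1, was higher in the knockout libraries of both in vivo sites. In spleen it was at 90.2, 54.9, 83.5 and 84.0 CPM in the wild-type and 162, 139, 139 and 141 CPM in the knockout libraries (log2 difference 0.87 ± 0.16, no overlap). In PC it was at 77.2, 94.7, 74.6 and 74.7 CPM against 205, 158, 150 and 154 CPM (1.05 ± 0.12, no overlap). The cultures held 102, 137 and 82.8 CPM against 128, 112 and 128 CPM (0.18 ± 0.18, overlapping). The difference was of about the same size at both sites in vivo. Without wild-type spleen 4 it was 0.91 in spleen, and without wild-type culture 3 it was 0.03 in culture. T-cell markers (7 genes) were listed for other cells that carry LFA-1. They summed to 14.3-20.9 CPM in the wild-type and 30.3-55.9 CPM in the knockout spleens, and to 4.15-10.5 and 12.8-24.1 CPM in the PC. The knockout cultures held 18.4-24.9 CPM, so the sum does not stand for other cells alone. Cd3g was at 17.55 CPM or more in each of these cultures, whereas Cd8a, Cd8b1 and Themis were at 0. In spleen, Cd8a, Cd8b1 and Themis were each higher in all knockout than in all wild-type libraries. In the PC this held for Cd8a, but not for Cd8b1 and Themis. NK and cytotoxic markers (6 genes) summed to 2.95-11.5 and 35.6-99.6 CPM in the spleens and to 12.8-35.6 and 36.1-61.8 CPM in the PC. Their part in the Itgal values was not tested.

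**Figure D2:**
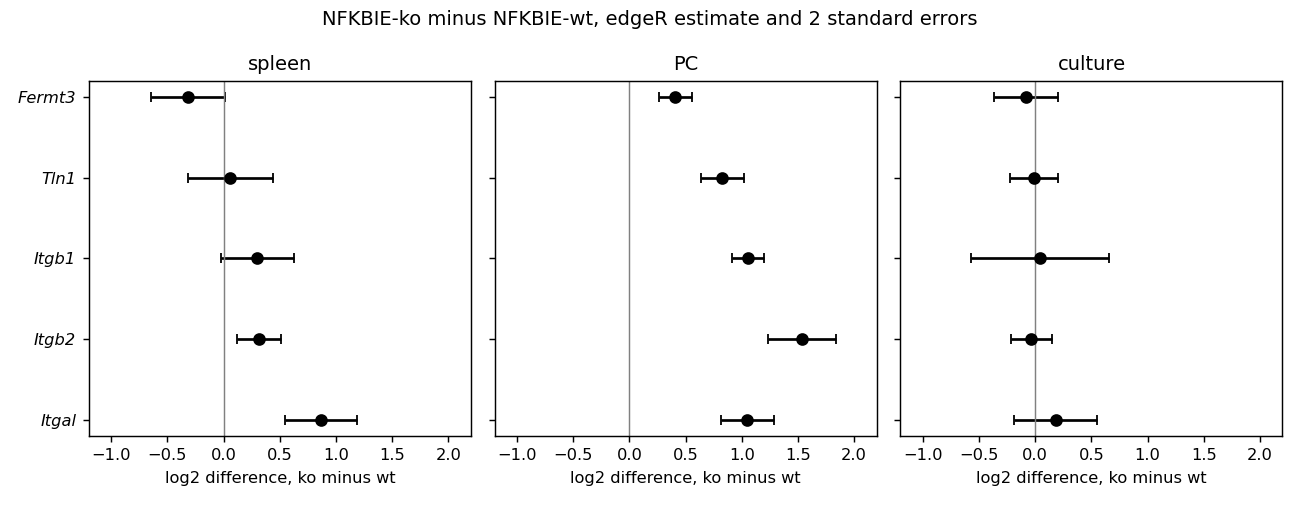
Difference between genotypes for the 5 members other than Fermt2. The horizontal axis is the log2 difference in CPM, NFKBIE-ko minus NFKBIE-wt, the panels are spleen, PC and culture, points are estimates and bars ± 2 SE. All 5 lie above 0 in PC, from 0.41 for Fermt3 to 1.54 for Itgb2, whereas in culture all 5 bars cross 0.

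Itgb2 (ENSMUSG00000000290, chr10:77366086-77401542, plus strand), the β subunit of all leukocyte β2 integrins, showed the widest range of the 5 as a fold from the lowest to the highest library. In spleen it was at 59.2, 57.2, 49.7 and 53.4 CPM in the wild-type and 73.9, 70.6, 67.0 and 65.3 CPM in the knockout libraries (log2 difference 0.31 ± 0.10, no overlap). In PC it was at 148, 94.0, 131 and 149 CPM in the wild-type and 335, 440, 363 and 386 CPM in the knockout libraries (1.54 ± 0.15, no overlap). In culture it was at 52.1, 56.9 and 61.2 against 57.2, 56.0 and 54.0 CPM (-0.04 ± 0.09, overlapping). The spleen difference was again 0.31 without wild-type spleen 4, and the culture difference was 0.03 without wild-type culture 3. From spleen to PC the group mean went from 54.9 ± 4.19 to 131 ± 25.7 CPM in wild type (log2 difference 1.26) and from 69.2 ± 3.85 to 381 ± 44.5 CPM in knockout (2.46). The contrast of spleen and culture was not itself used to choose Itgb2. It shares its libraries with the genotype contrasts that were, so its p-values are not independent of the choice. In this contrast Itgb2 was higher in the knockout spleens by 0.28 ± 0.08 (edgeR quasi-likelihood test, adjusted p = 0.0226), with all 4 spleen libraries above all 3 cultures. Without knockout spleen 1 that difference was 0.24 (adjusted p = 0.0590), and without any 1 of the knockout cultures it also missed the threshold (adjusted p = 0.0764-0.104).

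The summed markers of macrophages and monocytes were, like Itgb2, highest in the knockout PC libraries. The 12 genes of this list summed to 34.7-88.2 CPM in the wild-type and 99.4-376 CPM in the knockout spleens, to 594-1820 and 3880-5750 CPM in the PC, and to 37.0-87.8 and 37.5-46.4 CPM in the cultures. Marco, C1qa, C1qc and Fcgr1 were at 0 in all 3 knockout cultures, in which Itgb2 was at 54.0-57.2 CPM. The complement gene C1qa, made by macrophages, was at 39.5-194 CPM in the wild-type and 277-485 CPM in the knockout PC libraries. Lyz2, the largest part of the sum in PC, was at 215-574 and 1708-2497 CPM. Not every gene of the list rose there. Ccr2 was lower on average in the knockout PC libraries (11.2-21.1 CPM) than in the wild-type ones (20.9-31.4 CPM), and Marco and Fcgr1 overlapped between the genotypes. Among the 4 wild-type PC libraries, replicate 2 had the lowest marker sum (594 CPM) and the lowest Itgb2 (94.0 CPM), together with the highest Fermt2 (12 CPM) and Itgal (94.7 CPM). Granulocyte markers went the other way, with 137-409 CPM in the wild-type and 30.2-45.8 CPM in the knockout PC libraries. Platelet markers (6 of 7 genes listed) summed to 10.4-20.8 and 5.11-17.4 CPM there, and mesothelial markers (4 of 5 genes listed) to 2.84-4.81 and 1.11-1.86 CPM. The part of host cells in the PC values of Itgb2 and of the other members was not tested.

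**Figure D3:**
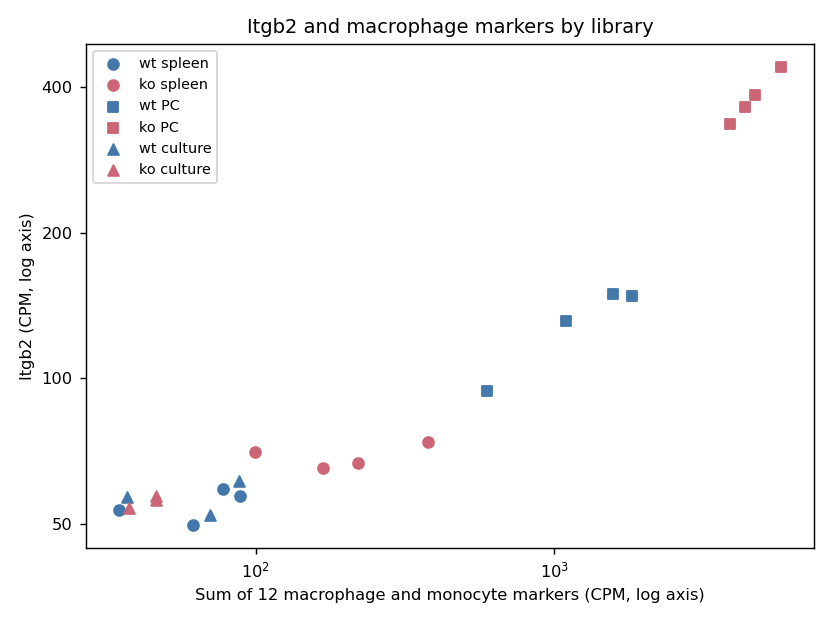
Itgb2 against macrophage and monocyte markers in the 22 libraries. The horizontal axis is the summed CPM of the 12 markers and the vertical axis Itgb2 in CPM, both on log scales, with 1 point per library and a color or symbol per group. The 14 spleen and culture libraries lie between 49.7 and 73.9 CPM of Itgb2, and the 4 knockout PC libraries lie at the upper right.

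The α partners of Itgb2 differed between the sites. On the TPM scale, Itgam (αM, CD11b), which with Itgb2 forms the complement receptor of myeloid cells, was at 0.738-5.91 in the spleens and 1.08-3.50 in the cultures, but at 29.98-66.2 in the wild-type and 166-254 in the knockout PC libraries. Itgal TPM divided by Itgb2 TPM had a median of 0.827 in the wild-type and 1.16 in the knockout spleens, 1.01 and 1.15 in the cultures, and 0.309 and 0.232 in the PC. There was therefore less Itgal than Itgb2 transcript in the PC libraries, and also in the wild-type spleens (ratios of 0.554-0.828). Itgam was above Itgal in the knockout PC libraries. The same held in wild-type PC 1, 3 and 4 (60.1, 66.2 and 52.2 against 25.1, 27.1 and 23.2 TPM), but not in wild-type PC 2 (29.98 against 33.0 TPM). Summed over Itgal, Itgam, Itgax and Itgad, the α partners were at 216-308 TPM in the knockout PC libraries, where Itgb2 was at 208-265 TPM. Itgb1 TPM divided by Itgb2 TPM went, in the order of group medians, from 2.89 in the knockout cultures through 2.27 and 2.23 in the knockout and wild-type spleens and 2.17 in the wild-type cultures to 1.48 and 1.10 in the wild-type and knockout PC libraries. The ranges of the spleen groups and the wild-type cultures overlapped (1.98-4.35 in all), and that of the knockout PC libraries (1.05-1.22) lay below them.

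**Figure D4:**
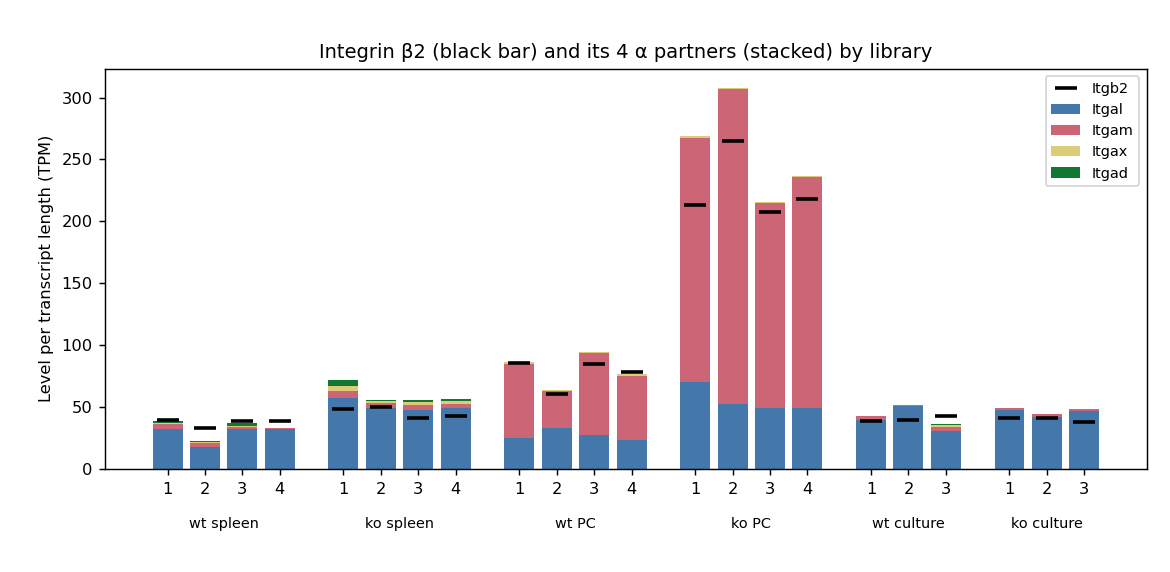
The β2 integrin chains in each library. Stacked bars give the TPM of the α chains Itgal, Itgam, Itgax and Itgad, and the black line on each bar the TPM of Itgb2, with libraries along the horizontal axis by group. Itgam makes up most of the stack in the knockout PC libraries (166-254 TPM) and in wild-type PC 1, 3 and 4 (52.2-66.2 TPM). It makes up little of the stack in the spleens and cultures.

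The contrast of sites within a genotype was not itself used to choose Fermt3, Tln1, Itgb1 and Itgal, but it shares its libraries with the genotype contrasts that were, so its p-values are not independent of the choice. In wild-type cells 14.2% of all tested genes were called higher and 14.3% lower in PC than in spleen, and of these 4 members Fermt3 and Itgb1 were called. Fermt3 rose by 0.36 ± 0.10 (adjusted p = 0.0277) and Itgb1 by 0.58 ± 0.14 (adjusted p = 0.0142), each with all 4 PC libraries above all 4 spleen libraries. The Fermt3 call was lost without wild-type spleen 1 or 3 or wild-type PC 1, 3 or 4 (adjusted p = 0.0604-0.0859). Tln1 differed by 0.12 ± 0.14 (adjusted p = 0.564) and Itgal by 0.05 ± 0.16 (adjusted p = 0.848), with overlapping libraries. Without wild-type spleen 4, Fermt3 (0.34, adjusted p = 0.0414) and Itgb1 (0.69, adjusted p = 0.00202) stayed past the threshold.

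In the knockout cells 29.7% of all genes were called higher and 30.1% lower in PC than in spleen. Fermt3 rose by 1.06 ± 0.15 (adjusted p = 0.000217), Tln1 by 0.86 ± 0.16 (adjusted p = 0.00101) and Itgb1 by 1.30 ± 0.11 (adjusted p = 1.14e-05), with no overlap between the sites. Itgal, which differed between genotypes at both sites, differed by 0.20 ± 0.12 between them (adjusted p = 0.165). All members but Fermt2, whose counts were too few for a fit, were thus at least as high on average in PC as in spleen, and the interval for Itgal (estimate ± 2 SE) was -0.03 to 0.43. Whether the difference between sites itself differs between genotypes was not tested, since it contains the contrast that chose the genes. Over all genes 32.8% (wild type) and 55.4% (knockout) did not overlap between the sites.

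Between spleen and culture, Itgb2 in knockout cells was the only member called with all libraries. In wild-type cells 0% of genes were called higher and 0% lower (0 of 12349 by edgeR, 133 at an unadjusted p under 0.05), and 0 of the 6 members (0 at an unadjusted p under 0.05, 0 by DESeq2). Without wild-type spleen 4 and wild-type culture 3, 434 genes were called higher and 403 lower, and the members were again not called. Itgal then differed by -0.68 ± 0.25 (adjusted p = 0.172) and Fermt2 by 0.31 ± 1.77 (adjusted p = 0.941). In knockout cells 20.3% of genes were called higher and 18.5% lower in spleen, beside the call of Itgb2. Fermt3 differed by -0.35 ± 0.16 (adjusted p = 0.123), Tln1 by -0.14 ± 0.16 (adjusted p = 0.537), Itgb1 by -0.07 ± 0.12 (adjusted p = 0.685) and Itgal by 0.22 ± 0.09 (adjusted p = 0.0976). Without knockout spleen 2, Fermt3 (-0.54, adjusted p = 0.000203) and Tln1 (-0.30, adjusted p = 0.0256) were called lower in spleen. Libraries did not overlap between spleen and culture for 2.0% of all genes in wild type and 49.3% in knockout.

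At the level of single transcripts, the study's rule for a differentially expressed transcript (DET: adjusted p below 0.05 and a log2 difference beyond 1) was met by 0.312% of all transcripts in spleen, 6.05% in PC and 0% in culture. Among the members' transcripts it was met by Fermt2-201 in spleen, by Fermt2-201, Itgb1-201, Itgb2-201, Itgb2-202 and Itgal-202 in PC, and by none in culture. A single transcript carried most of each gene, with 92.4% of the CPM for Fermt3-201, 99.5% for Tln1-201, 99.0% for Itgb1-201 and 95% for Itgb2-201. Itgal was the exception, with 46.0% for Itgal-202 and most of the rest in Itgal-201. These 2 transcripts share 30 of 31 exons and differ by 1 codon at the end of exon 18 (chr7:126916536-126916538). The junction is shown because the count of both transcripts rests on reads across it. The bases in capitals are those that only Itgal-201 keeps, in the GRCm39 window chr7:126916506-126921096, plus strand, with the intron left out.
Itgal-201: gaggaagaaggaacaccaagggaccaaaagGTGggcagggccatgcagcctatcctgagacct
Itgal-202: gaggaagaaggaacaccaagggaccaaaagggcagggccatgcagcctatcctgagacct
The log2 difference between genotypes was 1.44 ± 0.25 for Itgal-202 and 1.00 ± 0.20 for Itgal-201 in PC, and 1.09 ± 0.45 and 0.84 ± 0.14 in spleen. Both transcripts were higher on average in the knockout libraries of both sites, and how Salmon divided the reads between them is uncertain.

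The genes that work with the members in integrin activation were examined as a list of 61 genes, of which 58 were in the table. In spleen, 2 of 50 tested genes were called higher and 0 lower in NFKBIE-ko cells (9 and 6 at an unadjusted p under 0.05, 6 and 2 of 57 by DESeq2). Icam1, the ligand of LFA-1, rose by 1.43 (adjusted p = 0.0337) and Ptk2, the focal adhesion kinase, by 0.66 (adjusted p = 0.00872). Without wild-type spleen 4, 9 of 51 were called higher and 3 lower, and over all genes the counts went from 283 and 386 to 682 and 834. Those then called higher were Icam1 (1.79), Vcam1 (1.45), F11r (1.32), Rasgrp3 (1.60), Bcar1 (2.13), Dok1 (0.80), Lpxn (0.60), Ptk2 (0.64) and Skap2 (0.53), and those called lower Cytip (-0.93), Itgav (-0.67) and Parvb (-1.44).

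In PC, 28 of the 48 tested genes were called higher and 3 lower, beside 22.5% and 20.9% of all genes, and the list's median log2 difference was 0.32 beside -0.01 over all genes. By group, 7 of 10 activators around talin, kindlin and Rap1 were called higher and 1 lower, 5 of 7 inhibitors higher, 3 of 5 members of the ILK-PINCH-parvin complex higher, 4 of 8 focal adhesion adaptors and kinases higher, 5 of 13 other integrin subunits higher and 1 lower, and 4 of 5 ligands higher and 1 lower. The macrophage and monocyte markers differed between the same libraries (594-1820 CPM in wild type, 3880-5750 CPM in knockout), and the part of host cells in the differences of this list was not tested. The largest rises among genes above 5 CPM were those of F11r, the junctional adhesion molecule JAM-A that LFA-1 binds (5.61 ± 0.713 to 36.8 ± 3.49 CPM, log2 difference 2.71, adjusted p = 1.85e-07), Itga9, the α9 subunit (2.29, adjusted p = 0.00108), Rasgrp3, an exchange factor for Ras and Rap1 (2.27, adjusted p = 3.26e-06), and Parvb, β-parvin (1.92, adjusted p = 1.23e-05). Vcam1, the ligand of VLA-4, fell by 1.19 (adjusted p = 0.0105), and Rapgef1, an exchange factor for Rap1, fell by 0.26 (adjusted p = 0.0462).

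Some further genes of the list were chosen after their values were seen, for their direct ties to the members. Itgb7, which pairs with Itga4, rose in PC from 68.4 ± 9.58 to 233 ± 17.5 CPM (1.76, adjusted p = 1.39e-06), whereas Itga4 itself was at 402 ± 78.5 and 428 ± 56.1 CPM (0.09, adjusted p = 0.664). Flna, filamin A, which competes with talin for the β tail, rose by 0.97 (adjusted p = 4.78e-06). Apbb1ip (RIAM), which brings talin to Rap1, rose by 0.35 (adjusted p = 0.00210), and Rap1b by 0.29 (adjusted p = 0.0122). Itgam rose by 1.92 (adjusted p = 0.000676) and is also one of the 12 macrophage and monocyte markers above. In culture 0 of 40 genes of the list were called in either direction (3 higher and 2 lower at an unadjusted p under 0.05, 1 higher of 57 by DESeq2), and likewise without wild-type culture 3.

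Between sites, 12 genes of the list were called higher and 4 lower of 48 in PC against spleen in wild-type cells. Over all genes the shares were 14.2% and 14.3%. In knockout cells 23 and 7 of 50 were called, beside 29.7% and 30.1% of all genes. The wild-type counts were 16 and 10 of 50 without wild-type spleen 4, beside 2318 and 2203 over all genes. Between spleen and culture 0 of 49 were called in wild-type cells, beside 0% of all genes. Without both doubted libraries 4 of 50 were called higher and 2 lower, beside 434 and 403 over all genes. In knockout cells 18 of 51 were called higher and 9 lower, beside 20.3% and 18.5% of all genes.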

How the data were processed

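RNA was sequenced from 22 libraries of TCL1-355 TKO cells (Illumina TruSeq mRNA, NovaSeq, paired ends, with a read length of 150 bases in the labels and 100 in the study's methods). The authors quantified transcripts with Salmon 1.8 on a decoy-aware GRCm39 index and deposited 1 table of estimated counts per transcript, not normalized. Each listed transcript is above 0 in at least 5 libraries, and 69.5% of the deposited estimated counts are not whole. Tissue is given as blood for all samples, and the NFKBIE-ko descriptions begin by naming NFKBIE-wt cells, so groups were taken from titles. Transcripts were assigned to genes by identifier with the GENCODE annotation of GRCm39 (62147 matched, the rest held 0.619% of counts). Estimated counts were rounded per transcript and then summed per gene. Genotypes and sites were compared with edgeR 4.0.16 (R 4.3.3, limma 3.58.1) by TMM scaling, filterByExpr and the robust quasi-likelihood test. Each test used only the libraries compared, with Benjamini-Hochberg adjustment over all genes tested and a threshold of 0.05. Transcripts were fitted the same way, and DETs also needed a log2 difference beyond 1. CPM are TMM-scaled, and TPM were computed from counts and annotated transcript lengths. Log2 differences carry SE and group means carry SD. DESeq2 1.42.0, another scaling, no filter, 1 fit of all libraries, a replicate block, the most abundant transcript and leaving out each library were alternatives. Same-numbered libraries did not deviate together in every pair of any comparison (correlations -0.551 to 0.507), so numbers were not taken as pairs. The labels do not say whether spleen and PC libraries of a number came from 1 mouse. The study took spleen and PC cells from the same groups of transplanted mice, so libraries of both sites may share mice. The tests between sites were unpaired and do not account for this. No source says which library came from which mouse, so p-values measure the spread between these libraries. Sequences were read from GRCm39. The scripts were tested on simulated counts. The members and all lists (pathway, markers) were chosen with earlier results of these data known. Named genes are the members, up to 4 called list genes per direction with the largest difference and at least 5 CPM in the higher group, the 5 genes most like Fermt2, and its nearest and any called neighbors. Figures were drawn with matplotlib 3.10.9 in Python 3.11.15.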

Additional observations from a re-analysis of the deposited data

Results flagged for a closer look

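Of 24 groups of 4 libraries, 5 held a library far from the other 3. The measure was the gap of that library to the nearest one divided by the range of the group, on log2 CPM. Dixon's 95% limit for 4 libraries was the threshold. Chance gives about 1 in 20 groups. Fermt2 in knockout spleen 1 (gap over range 1.0) is the library with 7 counts where the other 3 had 0. The other 4 were libraries of Itgal. Wild-type spleen 2 lay below its group at 54.9 CPM (0.845) and knockout spleen 1 above its group at 162 CPM (0.903). In PC, wild-type replicate 2 lay above its group at 94.7 CPM (0.856) and knockout replicate 1 above its group at 205 CPM (0.838).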

How the results depend on the processing

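The number of members called changed under these alternatives. For NFKBIE-ko minus NFKBIE-wt in spleen it went from 2 to 1 when a log2 difference beyond 1 was also required, under the replicate block and with the most abundant transcript, and ranged from 1 to 3 when 1 library was left out. The Itgal call was lost without wild-type spleen 3 or knockout spleen 1, 3 or 4, and Fermt3 was called lower without knockout spleen 2. DESeq2 also called Itgb2 in spleen. The count of member DETs in spleen was 0 under the replicate block (added after seeing the data) and 0 to 1 with 1 library left out. In PC all 6 members were called, except that Fermt3 (0.41) and Tln1 (0.83) dropped out when a log2 difference beyond 1 was also required. The member DETs in PC numbered 5 to 6. In culture the number of members called was 1, Fermt2, with DESeq2 and the fit of all 22 libraries. It was 0 to 1 with 1 library left out (Fermt2 without wild-type culture 2), with 0 DETs. For PC minus spleen in wild type (Itgb2 not counted) it went from 3 to 1 with a log2 difference beyond 1 and with the most abundant transcript. It was 2 to 3 with 1 library left out. In knockout it was 3, except that Tln1 (0.86) dropped out when a log2 difference beyond 1 was also required. For spleen minus culture it was 0 throughout in wild type and, in knockout, went from 1 to 0 with a log2 difference beyond 1, the fit of all 22 libraries (Itgb2 adjusted p = 0.0999), the replicate block (0.0721) or the most abundant transcript (0.0929), and 0 to 3 with 1 library left out.

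Directions turned for uncalled values. For NFKBIE-ko minus NFKBIE-wt with 1 library left out, Tln1 ranged from -0.10 to 0.17 in spleen and, in culture, Fermt3 from -0.19 to 0.08, Tln1 from -0.06 to 0.07, Itgb1 from -0.16 to 0.50 and Itgb2 from -0.09 to 0.03. For PC minus spleen in wild type, Tln1 was at -0.0077 without wild-type spleen 2 (-0.0077 to 0.21 over all left-out libraries). Itgal was there at -0.12 with the most abundant transcript, -0.11 without wild-type spleen 2 and -0.05 without wild-type PC 2 (-0.11 to 0.12). For spleen minus culture in wild type, without wild-type culture 2, Fermt2 was at -0.16 (-0.16 to 1.16) and Itgb1 at 0.14 (-0.54 to 0.14). Fermt3 was at 0.025 without wild-type culture 3 (-0.23 to 0.025) and at 0.047 without both doubted libraries. None of these was called before or after. The Fermt3 call of PC against spleen in wild type was lost under the replicate block (adjusted p = 0.0827) and with the most abundant transcript (0.173), and the Itgb1 call with the latter (0.0588). Fermt2 in spleen was at -13.4 without knockout spleen 1, a value that depends on the prior count. Replicate numbers are not known to pair mice, and the block changed no other call of a member. The cause of these changes was not tested. Depth limits Fermt2 in the knockout libraries, where 0 to 7 counts stand behind each value.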
